A study of Mus musculus with 4 samples.

Results

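The genes described here are the CSF1 and TGF-beta axis genes of microglia: the colony-stimulating factor ligands Csf1 and Il34, the receptor genes Csf1r, Csf2ra and Csf2rb, the ligand gene Tgfb1 and the receptor genes Tgfbr1 and Tgfbr2. They were chosen by name, and all 8 were found among the 41862 gene columns of the deposited count tables. The tables come from 4 single-cell RNA libraries of the mouse central nervous system, made with inDrops, a droplet method that counts RNA molecules by unique molecular identifiers (UMIs). The groups were EAE TRAIL+, EAE TRAIL-, naive TRAIL+ and naive TRAIL-, with 1 library each. EAE is experimental autoimmune encephalomyelitis, a model of multiple sclerosis, here induced with MOG peptide in CFA and taken at its peak. All 4 groups were C57BL6 mice with the Aldh1l1CreERT2-TdTomato reporter, in which the astrocyte promoter Aldh1l1 drives an inducible Cre. In all 4 groups the sort took cells positive for TdTomato and for the lysosomal protein LAMP1, and TRAIL, the death ligand encoded by Tnfsf10, split them. The series gives 3 EAE and 3 naive mice. The sources used here do not say whether animals were pooled in a library, how Cre was induced or how old the mice were.

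CSF1 and IL-34 are ligands of the same receptor tyrosine kinase, CSF1R, whose signal microglia need to survive and renew. CSF2RA and CSF2RB form the receptor of GM-CSF, a cytokine that drives inflammation in EAE. TGF-beta 1, which microglia themselves make in a latent form, acts through TGFBR2 and TGFBR1 on SMAD proteins and keeps microglia in their homeostatic state.

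The tables listed 12987 barcodes, of which 7899 had at least 500 UMIs and at most 20% mitochondrial UMIs: 1814 in EAE TRAIL+, 1597 in EAE TRAIL-, 2229 in naive TRAIL+ and 2259 in naive TRAIL-. Total UMIs per library ran from 2856696 to 3984975, and the median of a kept barcode from 949 to 1907.5. The labels call the cells astrocytes, but clusters that carried astrocyte markers held only 186 barcodes. Microglia-like clusters held 1636 barcodes (90.2%) in EAE TRAIL+, 306 (19.2%) in EAE TRAIL-, 1893 (84.9%) in naive TRAIL+ and 322 (14.3%) in naive TRAIL-. All 14 microglia markers were detected in each of these sets, but this list also named the clusters, so that is no separate support for the name. In the EAE TRAIL+ set all 14 astrocyte markers were detected too, summing to 416 CPM against 37708 CPM for the microglia markers. The TRAIL- libraries were mostly endothelial-like (496 barcodes in EAE, 1160 in naive) and mural-like (465 and 516). Of 7716 distinct barcode names among kept barcodes, 182 occurred in more than 1 library. With 1 library per group no difference between groups was tested. The TRAIL+ and TRAIL- libraries of a state may share mice, so a difference seen in both fractions is not an independent repeat. Levels are UMIs summed over a class in a library per 1000000 UMIs (CPM), and the 95% intervals in parentheses or after a ratio cover counting error only, not the spread between mice. They take UMIs as independent, and so are too narrow for Csf1, whose UMIs sat in few cells. A ratio of at least 2-fold between sets with a mean of at least 50 CPM is counted as past 2-fold.

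The promoters of Csf1 and Csf2ra are shown because these genes were higher in EAE than in naive microglia-like cells in both sort fractions. RefSeq promoter sequences (GRCm38.p6) were matched for 5 of the 8 genes. Each line gives the 250 bases before the RefSeq start, 5′ to 3′ on the minus strand, for Csf1 at chr3:107760470-107760719 and for Csf2ra at chr19:61228419-61228668. Capitals mark every match, on either strand, to the 7 motifs searched.
Csf1: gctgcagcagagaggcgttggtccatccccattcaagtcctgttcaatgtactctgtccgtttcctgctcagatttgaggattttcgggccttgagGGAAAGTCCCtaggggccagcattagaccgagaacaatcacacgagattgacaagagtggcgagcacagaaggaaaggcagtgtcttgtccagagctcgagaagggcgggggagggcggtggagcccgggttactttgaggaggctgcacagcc
Csf2ra: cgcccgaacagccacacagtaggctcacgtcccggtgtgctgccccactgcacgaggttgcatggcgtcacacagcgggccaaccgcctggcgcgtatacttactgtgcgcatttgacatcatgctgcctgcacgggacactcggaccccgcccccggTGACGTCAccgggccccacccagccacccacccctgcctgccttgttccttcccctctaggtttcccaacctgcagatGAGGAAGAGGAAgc
The motifs were GAS (TTCNNNGAA), AP-1 (TGANTCA), PU.1 (GAGGAA), CRE (TGACGTCA), SMAD (GTCTAGAC), the TATA box (TATAAA) and the consensus of NF-kB, and the set was settled after other motifs had been tried and after matches in these promoters had been seen. In Csf1 the only match was to the NF-kB consensus, on the opposite strand, at 154 to 145 bases before the start. Of 32851 promoter windows of the same length, 7.25% held a match to it, and the Tgfb1 window held 1 as well. In Csf2ra the matches were a CRE at 92 to 85 bases before the start, which reads the same on both strands and was found in 1.55% of windows, and 2 adjoining PU.1 matches between bases 14 and 3, found in 23.3% of windows. A PU.1 match also lay in the Tgfbr2 window and in 1 of 2 Tgfbr1 windows. These matches describe letters and do not show binding.

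Over the 4 libraries together, most Csf1 UMIs were in microglia-like cells and most Il34 UMIs in mural-like cells. Csf1 (chr3:107741048-107760469, minus strand, GENCODE M21 annotation of GRCm38) had 1950 UMIs in microglia-like cells over the 4 libraries, 87.7% of its UMIs in kept barcodes, a share that the make-up of each sort sets in part. By library it was 97.3% in EAE TRAIL+, 70.1% in EAE TRAIL-, 94.0% in naive TRAIL+ and 35.0% in naive TRAIL-, where endothelial-like cells held 36.2%. Its level in microglia-like cells stood at 336 CPM in EAE TRAIL+ and 403 CPM in EAE TRAIL-, against 175 CPM in naive TRAIL+ and 110 CPM in naive TRAIL-. In monocyte-like cells, which were numerous only in EAE, Csf1 had 72.7 CPM in EAE TRAIL+ and 66.6 CPM in EAE TRAIL-. Endothelial-like cells had 78.9 CPM (EAE TRAIL-) and 51.8 CPM (naive TRAIL-), and mural-like cells had 20.5 and 27.3 CPM in the same libraries. Among the glia, 79 oligodendrocyte-like barcodes of naive TRAIL- had 173 CPM (110 to 260), which rests on 23 UMIs and whose interval overlapped that of the microglia-like cells of that library (83.1 to 143). The 140 astrocyte-like barcodes of naive TRAIL+ had 93 CPM from 19 UMIs.

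Il34 (chr8:110741829-110805924, minus strand) had 94.1% of its UMIs in mural-like cells. Mural cells are the pericytes and smooth muscle of vessels. Of the 12 mural markers, 8 were among the 100 leading genes of this cluster over all other barcodes, and the smooth muscle genes Acta2, Tagln and Myh11 were not. The Il34 level in mural-like cells was 391 CPM (337 to 450) in EAE TRAIL-, against 341 CPM (288 to 400) in naive TRAIL-. The ratio was 1.15, with an interval of 0.921 to 1.43, so no difference was detectable at this depth. Thinned to 500 UMIs each, 17.4% of mural-like barcodes in EAE TRAIL- and 12.2% in naive TRAIL- held an Il34 UMI. Fibroblast-like cells of naive TRAIL- had 98.6 CPM from 6 UMIs in 30 barcodes. Microglia-like cells had 2, 3, 1 and 1 Il34 UMIs in EAE TRAIL+, EAE TRAIL-, naive TRAIL+ and naive TRAIL-, which is at or below the floor of 3 counts. Astrocyte-like, oligodendrocyte-like and choroid plexus-like cells had none, which in the 140 astrocyte-like barcodes of naive TRAIL+ is a limit of 14.7 CPM at the floor of 3 counts. No cluster was named neuron-like, and neurons are a known source of IL-34 in brain. The gene is overlapped on the opposite strand by Gm15894 and Gm15895, and the sources used here do not say whether counting used strand. Of the 4 genes compared between EAE TRAIL- and naive TRAIL- mural-like cells (Csf1r, Il34, Tgfb1 and Tgfbr2) none passed 2-fold, whereas 7.06% of all genes compared did.

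**Figure D1:**
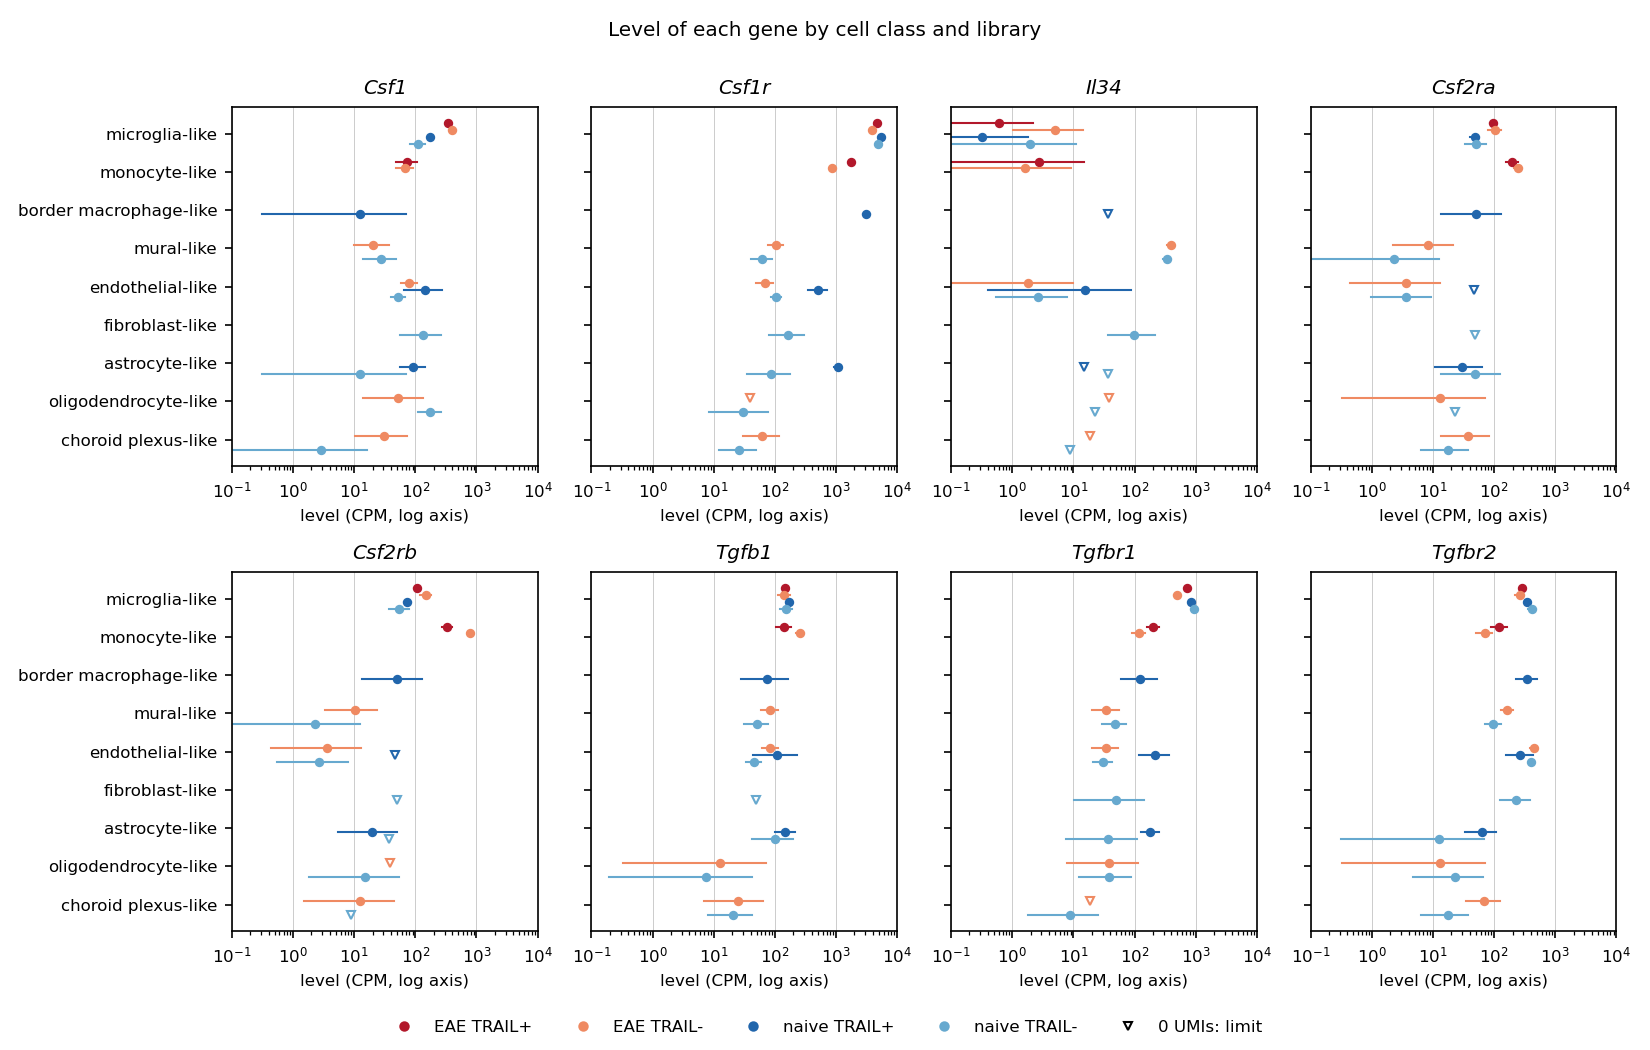
Level of each gene in CPM (log axis) by cell class, one point per library with at least 20 barcodes of the class, with 95% Poisson intervals that cover counting error only. Open triangles mark 0 UMIs, at the level that 3 UMIs would give. Csf1r and Tgfbr1 are highest in microglia-like cells, Csf2rb in monocyte-like cells and Il34 in mural-like cells.

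Csf1r (chromosome 18, plus strand) is the gene of the shared receptor of both ligands. In microglia-like cells it had 4673 CPM in EAE TRAIL+ and 3830 CPM in EAE TRAIL-, against 5331 CPM in naive TRAIL+ and 4866 CPM in naive TRAIL-. Thinned to 500 UMIs, 85.8% and 74.2% of EAE barcodes (TRAIL+ and TRAIL-) and 91.1% and 85.1% of naive barcodes held a Csf1r UMI. Border macrophage-like cells of naive TRAIL+, 58 barcodes, had 3139 CPM. Monocyte-like cells had 1742 CPM in EAE TRAIL+ and 853 CPM in EAE TRAIL-. In droplet data free RNA can add to such values. Per 100 UMIs of the complement genes C1qa, C1qb and C1qc, Csf1r had 26.4 UMIs in monocyte-like and 26.6 in microglia-like cells of EAE TRAIL+. In EAE TRAIL- it had 65.2 in monocyte-like and 23.1 in microglia-like cells. Astrocyte-like cells of naive TRAIL+ had 1057 CPM of Csf1r, with 34.6 UMIs per 100 complement UMIs, close to the 34.9 of microglia-like cells in that library. How much of the Csf1r in those cells was free RNA was not tested.

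In the EAE libraries the GM-CSF receptor genes were higher in monocyte-like than in microglia-like cells. Csf2rb (chr15:78325752-78353847, plus strand), the signalling beta chain, had 331 CPM (275 to 395) in monocyte-like cells of EAE TRAIL+ and 796 CPM (727 to 870) in those of EAE TRAIL-. Microglia-like cells of the same libraries had 105 and 149 CPM, so the monocyte-like level was 3.15 times (2.54 to 3.88) and 5.36 times (4.27 to 6.79) the microglia-like one. Csf2ra (chr19:61223957-61228429, minus strand), the ligand-binding alpha chain, had 199 and 245 CPM in monocyte-like cells and 94.5 and 102 CPM in microglia-like cells, ratios of 2.11 (1.61 to 2.72) and 2.40 (1.77 to 3.28). Past 2-fold between monocyte-like and microglia-like cells were 6 of 7 genes compared in EAE TRAIL+ and 6 of 7 in EAE TRAIL-, where 31.5% and 31.9% of all genes compared were. Those lower in monocyte-like cells were Csf1, Csf1r, Tgfbr1 and Tgfbr2 in both. Csf2ra in EAE TRAIL+ was no longer past 2-fold with TMM (log2 ratio 0.89) or DESeq2 size factors (0.93). Border macrophage-like cells of EAE TRAIL+ had 202 CPM of Csf2ra from 6 UMIs in 17 barcodes. Naive monocyte-like cells were few, and the 19 barcodes of naive TRAIL+ held 3 Csf2rb UMIs. Csf2rb shares 12.3% of its 50-base stretches with its mouse paralog Csf2rb2, so counts of the pair are uncertain. Csf2rb2 ran at 2.39 and 4.77 times the microglia-like level. Per 100 complement UMIs, Csf2rb had 5.02 UMIs in monocyte-like and 0.598 in microglia-like cells of EAE TRAIL+, and 60.9 and 0.895 in EAE TRAIL-. In monocyte-like cells of EAE TRAIL+ relative to those of EAE TRAIL-, Csf2rb was lower (0.416-fold, 0.339 to 0.508) and Csf1r higher (2.04-fold, 1.82 to 2.30), and 12.1% of genes compared passed 2-fold either way. The summed level of the complement genes in them also differed, at 6593 CPM in EAE TRAIL+ and 1308 CPM in EAE TRAIL- monocyte-like cells, and its part was not tested.

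Tgfb1 (chr7:25687002-25705077, plus strand) was spread over classes. Microglia-like cells had 148 CPM in EAE TRAIL+ and 140 CPM in EAE TRAIL-, against 167 CPM in naive TRAIL+ and 151 CPM in naive TRAIL-. Monocyte-like cells had 140 CPM in EAE TRAIL+ and 258 CPM in EAE TRAIL-. Endothelial-like cells had 84.3 CPM (EAE TRAIL-) and 45.6 CPM (naive TRAIL-), a ratio of 1.85 (1.22 to 2.80). None of the 4 genes compared in endothelial-like cells passed 2-fold, whereas 4.78% of all genes compared did.

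The type I receptor gene Tgfbr1 (chr4:47353222-47414931, plus strand) had 94.2% of its UMIs in microglia-like cells. It stood there at 729 CPM in EAE TRAIL+ and 497 CPM in EAE TRAIL-, against 827 CPM in naive TRAIL+ and 927 CPM in naive TRAIL-. Endothelial-like cells had 34.1 CPM (EAE TRAIL-) and 30.4 CPM (naive TRAIL-). The type II receptor gene Tgfbr2 (chr9:116084293-116175360, minus strand) had 290 CPM in EAE TRAIL+ and 261 CPM (222 to 305) in EAE TRAIL- microglia-like cells, against 346 CPM in naive TRAIL+ and 416 CPM (362 to 476) in naive TRAIL-. Endothelial-like cells had 446 CPM (393 to 505) in EAE TRAIL-, above the microglia-like cells of that library. Their 408 CPM (372 to 448) in naive TRAIL- overlapped the microglia-like interval. Per 100 complement UMIs, Tgfbr2 had 111 UMIs in endothelial-like and 1.57 in microglia-like cells of EAE TRAIL-, and 190 and 3.30 in naive TRAIL-.

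By Pearson correlation of log2(CPM + 10) over the 15 class-by-library sums with at least 50 barcodes, the genes most like Csf1 were Ints6 (0.92), Retreg1 (0.87) and Spsb1 (0.87) among 7783 genes. Those most like Csf1r were Cd33, Ccl3 and Trem2 (0.99 each), and most like Il34 Kcnmb1, Cspg4 and Gpc3 (0.99 each). Csf2ra ran most like Gsto1 (0.97), Cd52 and Hk3 (0.96 each). Csf2rb ran most like Arrdc4 (0.97), Tnfaip2 and its paralog Csf2rb2 (0.96 each). The nearest to Tgfb1 were Lpl, Lyn and Btg1 (0.91 each), to Tgfbr1 Susd3 and Selplg (0.98 each), and to Tgfbr2 Edem3 (0.94), Btg2 (0.94) and Git2 (0.93). Among the 8 genes themselves the closest pairs were Csf2ra with Csf2rb (0.94) and Csf1r with Tgfbr1 (0.93). Sums of 1 library share its free RNA and depth, so these values describe the 15 sums and no more.

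In EAE against naive microglia-like cells, Csf1 and the GM-CSF receptor genes were higher and Csf1r, Tgfbr1 and Tgfbr2 lower, in both sort fractions. Csf1 was 1.92 times the naive level in TRAIL+ cells (1.73 to 2.13) and 3.66 times in TRAIL- cells (2.73 to 4.99). Csf2ra was 1.95 times (1.60 to 2.39) and 2.0 times (1.25 to 3.30) the naive level. Csf2rb was 1.42 times (1.2 to 1.68) and 2.70 times (1.75 to 4.29) the naive level. Past 2-fold were 0 of 7 genes in TRAIL+ cells, where 2.87% of 3208 genes compared were (2.40% higher and 0.468% lower), and 3 of 7 in TRAIL- cells (Csf1, Csf2ra and Csf2rb, all higher), where 16.0% of 3265 genes were (7.93% higher and 8.12% lower). Csf2ra rested on 62 UMIs in EAE TRAIL- and 26 in naive TRAIL-, and lay at the threshold; its log2 ratio of 1.0 was under 1 in several alternatives, lowest at 0.57 with Leiden resolution 2.

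The receptor genes with lower levels in EAE differed by less. Csf1r was at 0.877 times (0.858 to 0.896) the naive level in TRAIL+ cells and 0.787 times (0.743 to 0.833) in TRAIL- cells. Tgfbr1 was at 0.881 times (0.833 to 0.932) and 0.536 times (0.462 to 0.621), and Tgfbr2 at 0.839 times (0.768 to 0.916) and 0.627 times (0.507 to 0.774). Tgfb1 was at 0.889 times (0.784 to 1.01) and 0.928 times (0.674 to 1.28), and both intervals held 1. Most EAE microglia-like cells of the TRAIL- fraction (181 of 306) and 670 of 1636 in the TRAIL+ fraction fell in a cluster led by Cd74, H2-Aa, H2-Eb1 and Ccl12, while naive cells lay almost wholly in 2 clusters led by P2ry12, a homeostatic purinergic receptor gene. The EAE TRAIL- set also carried markers of other cells, with endothelial markers summing to 796 CPM and choroid plexus markers to 650 CPM, against 381 and 473 CPM in the naive TRAIL- set. The EAE TRAIL- set held 825 CPM of monocyte, 368 CPM of dendritic and 175 CPM of T or NK markers, against 332, 130 and 29.5 CPM in the naive TRAIL- set, with 6 of 11 T or NK markers, Cd3e among them, at 0 in naive TRAIL-. The EAE TRAIL+ set held 668 CPM of monocyte and 171 CPM of dendritic markers, against 486 and 89.2 CPM in the naive TRAIL+ set. The part of these markers in the ratios was not tested.

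**Figure D2:**
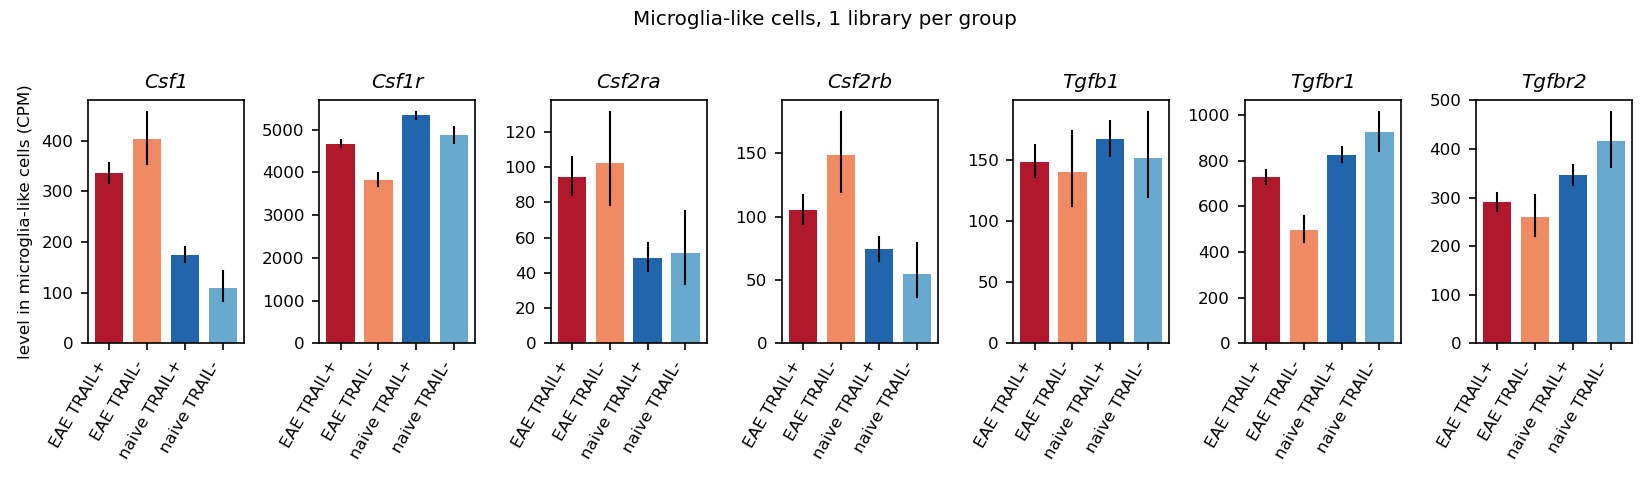
Level in CPM of 7 genes in microglia-like cells of each library (1 bar per library, axes from 0), with 95% Poisson intervals that cover counting error only. The EAE libraries lie above the naive ones for Csf1 (336 and 403 against 175 and 110 CPM), Csf2ra and Csf2rb, and below them for Csf1r, Tgfbr1 and Tgfbr2.

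Csf1 was detected in a minority of microglia-like cells. It was seen in 377 of 1636 barcodes in EAE TRAIL+ and 78 of 306 in EAE TRAIL-, against 231 of 1893 (naive TRAIL+) and 31 of 322 (naive TRAIL-). Those that held it had 2.93 and 3.13 UMIs on average in the EAE libraries (TRAIL+ and TRAIL-) and 2.36 and 1.81 in the naive ones, with up to 21, 16, 27 and 9 in 1 barcode. The 5% of barcodes with most Csf1 held 53.7% and 48.8% of its UMIs in EAE TRAIL+ and EAE TRAIL-, and 73.4% and 73.2% in the naive libraries in the same order. With each barcode thinned to 500 UMIs, 9.11% (7.76 to 10.6) of EAE TRAIL+ and 11.8% (8.38 to 15.9) of EAE TRAIL- barcodes held Csf1, against 6.60% (5.53 to 7.82) of naive TRAIL+ and 4.04% (2.17 to 6.80) of naive TRAIL- barcodes. In EAE TRAIL- mural-like cells, with a median depth of 970 UMIs against 1895.5 in the microglia-like cells, that share was 0.43%.

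Between TRAIL+ and TRAIL- microglia-like cells, no gene passed 2-fold: 0 of 7 in EAE, where 2.79% of genes compared did, and 0 of 6 in naive mice, where 1.13% did. Csf1 was at 0.833 times the TRAIL- level (0.725 to 0.961) in EAE and 1.59 times (1.21 to 2.14) in naive mice. Tgfbr1 was at 1.47 times (1.30 to 1.66) in EAE and 0.893 times (0.809 to 0.987) in naive mice, where the sign of the log2 ratio of -0.16 turned with scaling by TMM (0.07) or DESeq2 size factors (0.08). Csf1r was higher in TRAIL+ cells in both, at 1.22 times (1.17 to 1.28) and 1.10 times (1.05 to 1.14). The TRAIL- microglia-like sets were a small part of libraries made mostly of vascular cells, and free RNA of those cells cannot be told apart from the effect of the gate.

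Class II-high EAE microglia-like cells had more Csf1. For each cell the UMIs of H2-Aa, H2-Ab1, H2-Eb1 and Cd74, the chains and the chaperone of MHC class II, were taken as a share of all its UMIs. Cells above the 95th percentile of naive TRAIL+ microglia-like cells, 0.0816% of UMIs, were called class II-high. One class II UMI passes this value in a cell with under 1225 UMIs, so the class is a range and not a cell type; 346 EAE TRAIL+ and 34 EAE TRAIL- cells lay within 2-fold of it. High were 887 cells and low 749 in EAE TRAIL+, and 197 and 109 in EAE TRAIL-. Median depths were alike, at 1870 UMIs in high and 1902 in low cells of EAE TRAIL+, and 1945 and 1783 in EAE TRAIL-. The cluster led by class II genes held 71.7% of high and 4.54% of low cells in EAE TRAIL+, and 86.8% and 9.17% in EAE TRAIL-.

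Csf1 stood at 447 CPM in class II-high and 202 CPM in class II-low cells of EAE TRAIL+, a ratio of 2.21 (1.93 to 2.53). In EAE TRAIL- it stood at 504 and 207 CPM, a ratio of 2.43 (1.74 to 3.46). It was the 1 gene of 7 past 2-fold in each library, a call that some settings ended. In EAE TRAIL+ the ratio was 1.75 at Leiden resolution 2, 1.97 with a class II threshold of 1% of UMIs and 1.94 with the threshold set after thinning, and in EAE TRAIL- it was 1.88 with the threshold at the 99th percentile. Of all genes compared, 1.87% in EAE TRAIL+ and 15.0% in EAE TRAIL- passed 2-fold either way. Higher were 1.59% and 5.59%, and lower 0.280% and 9.40%. Thinned to 500 UMIs, 11.2% of high and 6.68% of low cells in EAE TRAIL+ held Csf1, and 15.2% and 5.50% in EAE TRAIL-. Over 4 bands of the class II share, from cells with none through the lowest, middle and highest of 3 about equal groups of the rest, Csf1 was 173, 250, 403 and 544 CPM in EAE TRAIL+. In EAE TRAIL- it was 222, 326, 353 and 700 CPM over the same bands. The level was thus higher in each band than in the one before it in both libraries, although the intervals of the lowest and middle groups overlapped in EAE TRAIL-, at 247 to 422 and 264 to 461 CPM.

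**Figure D3:**
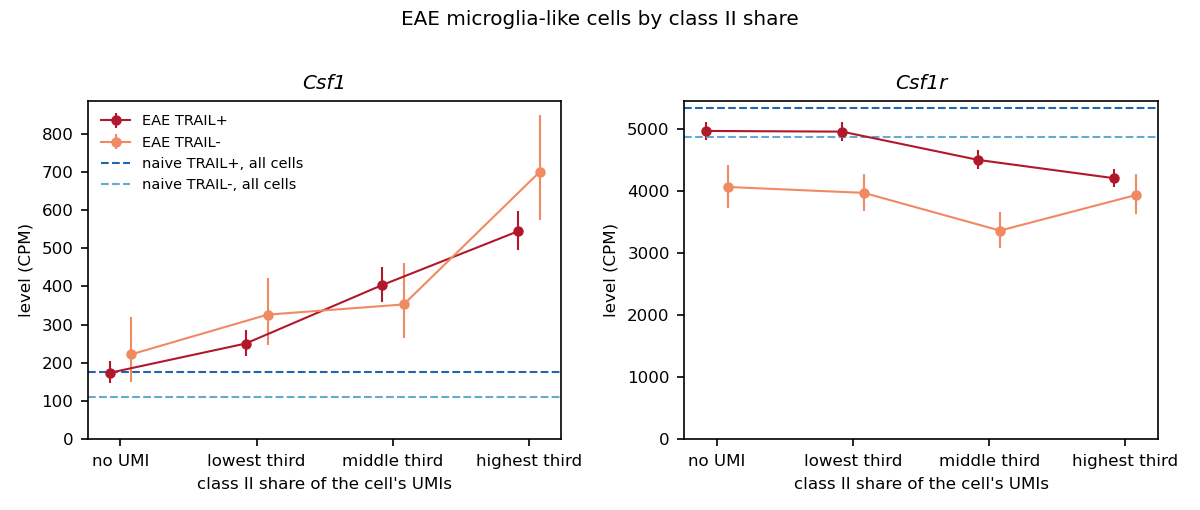
Level in CPM of Csf1 and Csf1r in EAE microglia-like cells over 4 bands of class II share (cells with no class II UMI, then 3 about equal groups of the others), with 95% Poisson intervals for counting error. The bands were set within each library. Dashed lines give all naive microglia-like cells. Csf1 is 173 to 544 CPM over the bands in EAE TRAIL+ and 222 to 700 CPM in EAE TRAIL-, while Csf1r lies between 3360 and 4966 CPM.

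Class II-low EAE cells were nearer to naive cells in Csf1. They had 1.16 times the naive level (1.00 to 1.33) in the TRAIL+ fraction and 1.89 times (1.24 to 2.86) in the TRAIL- fraction, where 43 UMIs in 109 cells carry the value. Of the 7 genes, 0 passed 2-fold between class II-low EAE and naive cells in TRAIL+, where 1.34% of genes compared did, and 1 did in TRAIL- (Csf2rb, 2.54 times, 1.46 to 4.44), where 20.2% did. By cluster, Csf1 in EAE TRAIL+ was 489 CPM in the cluster led by class II genes and 218 and 227 CPM in the 2 other microglia-like clusters, which stood at 182 and 163 CPM in naive TRAIL+. The 22 naive TRAIL+ barcodes of the class II-led cluster had 483 CPM (281 to 773) from 17 UMIs. Only 3 of these barcodes held Csf1, and 1 of them held 12 of the UMIs. Without that cluster, which ends the 2-fold call in EAE TRAIL+, an alternative chosen after seeing the data, Csf1 was 1.29 times the naive level in TRAIL+ cells and 2.03 times in TRAIL- cells, and 1.86 and 2.11 times as high in class II-high as in class II-low cells.

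In the classes as named, the other genes differed by less than 2-fold with class II share. Csf1r was at 0.891 times the class II-low level (0.863 to 0.919) in EAE TRAIL+ and 0.901 times (0.828 to 0.982) in EAE TRAIL-, where the log2 ratio of -0.15 turned to 0.11 with TMM and 0.03 with DESeq2 size factors. Over the bands it ran at 4966, 4955, 4499 and 4204 CPM in EAE TRAIL+, and at 4063, 3968, 3360 and 3935 CPM in EAE TRAIL-, where the highest band lay above the middle one. Csf2ra was at 1.32 times (1.04 to 1.67) and 1.27 times (0.720 to 2.34), so the second interval held 1. Its log2 ratio of 0.35 in EAE TRAIL- turned to -1.29 at Leiden resolution 2 and -1.05 without the class II-led cluster, both with intervals that held 0. Csf2rb was at 1.06 and 1.09 times, with both intervals holding 1. Tgfbr2 was at 0.797 times (0.700 to 0.906) in EAE TRAIL+ and at 0.947 times (0.677 to 1.34) in EAE TRAIL-, where its sign also turned with scaling. Tgfb1 and Tgfbr1 lay between 0.920 and 1.25 times in the 2 libraries, and the log2 ratio of Tgfbr1 in EAE TRAIL-, 0.11, was -0.72 without that cluster. Markers of monocytes summed to 780 CPM in class II-high and 534 CPM in class II-low cells of EAE TRAIL+, and to 893 and 695 CPM in EAE TRAIL-. Dendritic markers, a list that holds the class II transactivator gene Ciita, summed to 218 CPM in class II-high and 117 CPM in class II-low cells of EAE TRAIL+, and to 477 and 159 CPM in EAE TRAIL-. In EAE TRAIL- the class II-high cells had 203 CPM of choroid plexus, 575 CPM of endothelial and 17.6 CPM of T or NK markers, and the class II-low cells 1510, 1221 and 478 CPM. The part of these markers in the ratios was not tested.

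**Figure D4:**
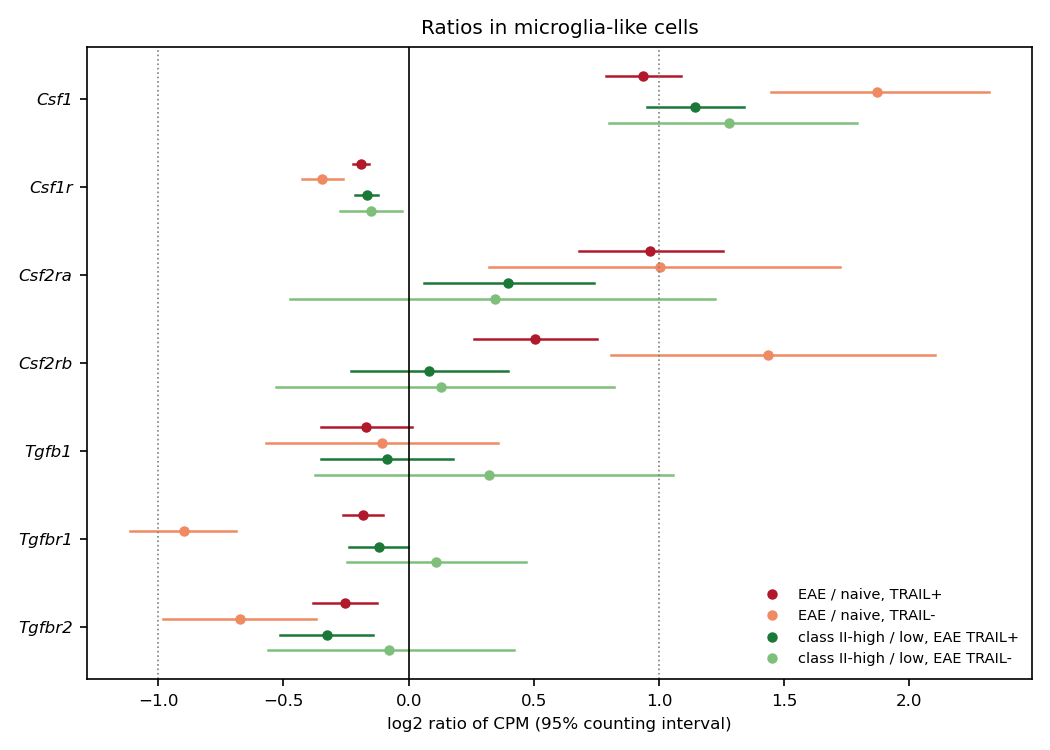
Log2 ratio of CPM in microglia-like cells for 7 genes, EAE over naive and class II-high over class II-low, with 95% counting intervals; dotted lines mark 2-fold. Csf1 is to the right of 0 in all 4 comparisons, at 0.94 and 1.87 for EAE over naive and 1.14 and 1.28 for class II, and Csf1r to the left in all 4, although its class II ratio in EAE TRAIL- changes sign with scaling.

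The rest of the pathway was described by lists of genes known for a role in it. Of 23 genes of CSF1 receptor signalling and myeloid transcription, 17 were compared in TRAIL+ cells and none passed 2-fold, with a median log2 ratio of EAE over naive of -0.11 beside -0.05 for all genes. The nearest to 2-fold were Cbl, an E3 ligase that ends CSF1R signals, at 0.608 times the naive level, and Runx1, a myeloid transcription factor, at 1.57 times. Spi1, which encodes PU.1, was at 0.892 times. In TRAIL- cells 19 were compared, with a median of -0.24 beside -0.07, and 2 passed 2-fold, a smaller share than the 16.0% of all genes. There the kinase gene Jak2 was higher, at 80.9 CPM in EAE against 23.6 CPM in naive cells, and Stat5b, a transcription factor downstream of the GM-CSF receptor, was lower, at 38.0 CPM in EAE against 88.4 CPM in naive cells. Of the other CSF receptors, Csf3r, the G-CSF receptor gene, was at 1.02 and 0.979 times the naive level.

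Genes of TGF-beta latency and of the SMADs had median EAE over naive log2 ratios below those of all genes, -0.05 in TRAIL+ and -0.07 in TRAIL- cells, and general targets did not in TRAIL- cells. Of latency and activation genes, 4 of 14 were compared in each fraction, none passed 2-fold, and the medians were -0.38 in TRAIL+ and -0.23 in TRAIL- cells. Nrros, which anchors latent TGF-beta 1 on microglia, was at 0.877 times the naive level in TRAIL+ and 0.968 times in TRAIL- cells. The integrin gene Itgav, whose product takes part in activating the ligand, was at 0.673 and 0.747 times. Of 14 SMAD and modulator genes, 10 were compared in TRAIL+ cells and none passed 2-fold, with a median of -0.18. In TRAIL- cells 8 were compared, with a median of -0.48. Smad4, the common SMAD, was just past 2-fold, at 97.4 CPM in EAE and 196 CPM in naive cells. DESeq2 size factors moved the median log2 ratio of all genes in this comparison from -0.07 to -0.008, and TMM moved it to -0.16. Smad4 was not called again with either. Smad3 was at 0.666 and 0.566 times and Smad7, an inhibitory SMAD that the pathway induces, at 0.923 and 0.541 times. Of general targets, 5 were compared in each fraction, with medians of -0.09 and 0.16; Fn1, fibronectin, which is also on the monocyte marker list, was past 2-fold in TRAIL- cells at 102 CPM in EAE and 27.5 CPM in naive cells. With class II share, none of these genes passed 2-fold in EAE TRAIL+. In EAE TRAIL-, 1 of 5 latency and activation genes and 1 of 3 TGF-beta receptor genes did, where 15.0% of all genes did. Itgav was higher, at 90.3 CPM in class II-high and 19.3 CPM in class II-low cells, the latter near the floor of 14.5 CPM. The co-receptor gene Eng was lower, at 40.1 CPM in class II-high and 121 CPM in class II-low cells. Endothelial markers were also lower in class II-high cells (575 against 1221 CPM), and their part was not tested.

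Most of 18 microglia genes known to depend on TGF-beta had ratios of EAE over naive below 1, more of them in TRAIL- than in TRAIL+ cells. Of its genes, 8 are among the 14 markers that named the class. In TRAIL+ cells none passed 2-fold, 14 of 18 were below 1-fold, and the median log2 ratio was -0.43 beside -0.05 for all genes. In TRAIL- cells 7 were past 2-fold and lower, where 8.12% of all genes were, 17 of 18 were below 1-fold, and the median was -0.87 beside -0.07. P2ry12 had 1514 CPM in EAE TRAIL+ and 908 CPM in EAE TRAIL-, against 2268 CPM in naive TRAIL+ and 2863 CPM in naive TRAIL-. Sall1, a microglial transcription factor, was at 0.757 times the naive level in TRAIL+ and 0.477 times in TRAIL- cells. Gpr34 and Fcrls were at 0.373 and 0.374 times in TRAIL- cells, the fractalkine receptor gene Cx3cr1 at 0.439 and P2ry13 at 0.463 times, and 1 more gene past 2-fold, Siglech, was at 0.494 times. Siglech thus lay close to the threshold, and the 7 genes were not called again with other scaling. Tmem119, also a homeostatic marker, was at 1.04 and 0.830 times, and Crybb1 at 1.54 and 1.29 times. Between class II-high and class II-low EAE cells only Fcrls of the 18 passed 2-fold, at 0.383 times in TRAIL+ and 0.251 times in TRAIL- cells. Of all genes compared, 0.280% in TRAIL+ and 9.40% in TRAIL- cells were past 2-fold and lower. Of the 18, 17 in TRAIL+ and 14 in TRAIL- cells were below 1-fold. The medians were -0.47 and -0.34 beside -0.03 and -0.05 for all genes.

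**Figure D5:**
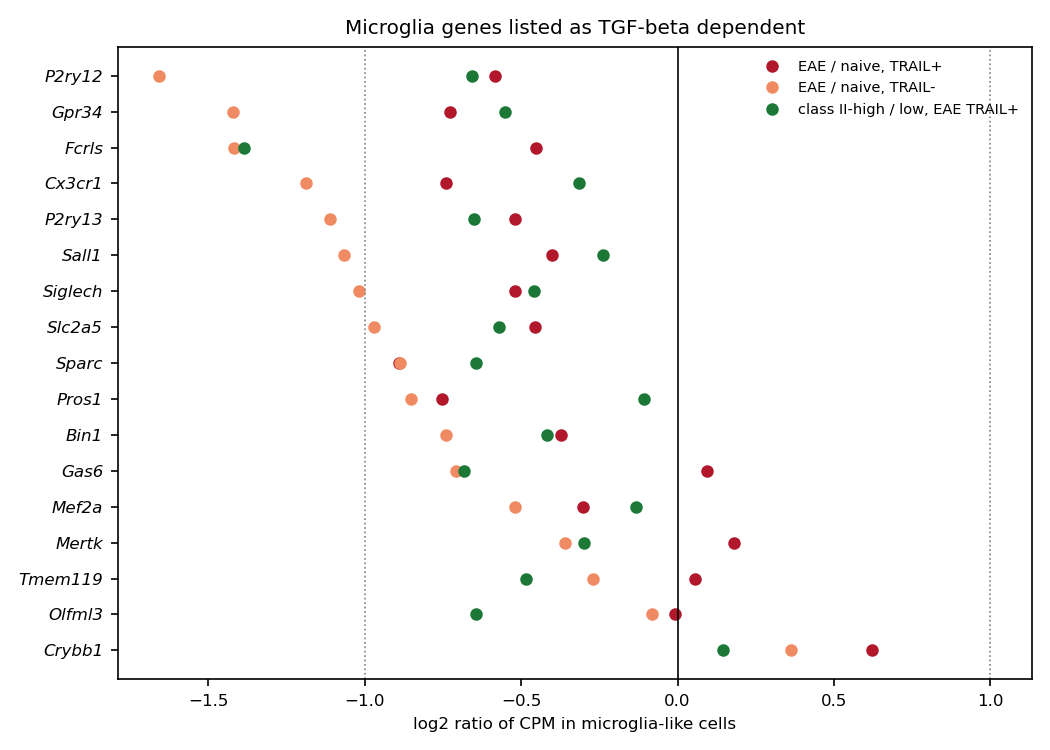
Log2 ratio of CPM in microglia-like cells for 17 of the 18 genes listed as TGF-beta dependent, EAE over naive in each sort fraction and class II-high over class II-low in EAE TRAIL+, ordered by the TRAIL- ratio; dotted lines mark 2-fold. In the TRAIL- fraction 16 of the 17 genes plotted lie left of 0, and 7 of them left of the 2-fold line.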

How the data were processed

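Single-cell RNA was measured in 4 inDrops libraries. The deposited tables hold UMI counts per barcode and gene, not scaled by the authors. Per the submitters' processing notes, reads were aligned with Bowtie to GRCm38; the sources used here give neither annotation nor version. Barcodes with at least 500 UMIs and at most 20% mitochondrial UMIs were kept. Counts were scaled to 10000, and 2000 variable genes without the 8 described, 30 components, 15 neighbours and Leiden resolution 1 gave clusters (scanpy 1.11.5). Scrublet called 77 barcodes (0.975%), which were kept in the main analysis.

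A cluster was named from 17 marker lists when at least 3 and at least 50% of a list were among its 100 leading genes over the median cluster, seen in at least 20% of its cells, and no other list had more in the first 10. This rule was changed after the clusters were seen, since a first form left the class II-led microglia cluster unnamed; a cluster of 26 barcodes stayed unnamed.

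Summed counts were compared as ratios of CPM, with Clopper-Pearson 95% intervals for ratios and shares, exact Poisson intervals for levels and a floor of 3 counts; the ratio step was tested on simulated data. No p-value was computed. The genes named were the 8, of each list up to 6 past 2-fold and up to 3 well-measured others, and the 3 most like each gene; Siglech was added after its values were seen, and 2 genes this rule names are not reported here. Genes and lists were chosen with earlier results of these data known. Alternatives changed filters, clustering, scaling (edgeR 4.0.16, DESeq2 1.42.0), the class II threshold and the fold.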

Additional observations from a re-analysis of the deposited data

Results flagged for a closer look

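For 4 of 7 genes the ratio of TRAIL+ to TRAIL- microglia-like cells lay on opposite sides of 1 in EAE and in naive mice. For Tgfbr1, however, TMM and DESeq2 size factors put both on the same side. The share of all genes that changed side was not computed, so this count is not particular to the genes described. With 1 library per group the differences were not tested, and their intervals cover counting error only. On the log2 scale the EAE ratio minus the naive ratio was -0.93 (-1.38 to -0.49) for Csf1, whose TRAIL+ level was 0.833 times the TRAIL- level in EAE and 1.59 times in naive mice; with TMM the EAE log2 ratio was -0.035. It was -0.93 (-1.59 to -0.27) for Csf2rb, at 0.708 times in EAE and 1.35 times in naive mice, where the interval of 0.908 to 2.07 held 1. It was 0.72 (0.49 to 0.94) for Tgfbr1, at 1.47 times in EAE and 0.893 times in naive mice. It was 0.42 (0.10 to 0.74) for Tgfbr2, at 1.11 times in EAE, where the interval of 0.940 to 1.33 held 1, and 0.832 times in naive mice, where TMM gave a log2 ratio of -0.030.

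In barcodes under 500 UMIs, which no comparison used, genes were picked whose EAE interval lay wholly above the naive one. How many of all genes did so was not computed, so the list is not a result particular to these genes. Csf1 had 241 CPM (180 to 316) in EAE TRAIL+, against 86.1 CPM (56.7 to 125) in naive TRAIL+. In the TRAIL- fraction it had 135 CPM (94.8 to 186) in EAE, against 32.9 CPM (16.4 to 58.9) in naive mice. Csf2ra had 61.9 CPM (36.1 to 99.1) in EAE TRAIL-, against 8.98 CPM (1.85 to 26.2) in naive TRAIL-, the naive value from 3 UMIs. Csf2rb had 107 CPM (67.6 to 160) in EAE TRAIL+, against 31.9 CPM (15.3 to 58.6) in naive TRAIL+. For both receptor genes the intervals of the other fraction overlapped. Csf2ra had 88.1 CPM (53.1 to 138) in EAE TRAIL+, against 54.2 CPM (31.6 to 86.8) in naive TRAIL+. Csf2rb had 106 CPM (70.7 to 152) in EAE TRAIL-, against 71.8 CPM (46.0 to 107) in naive TRAIL-. Csf1r differed in the opposite direction in the TRAIL+ fraction, at 3771 CPM (3516 to 4039) in EAE against 4761 CPM (4523 to 5009) in naive mice. Barcodes under 500 UMIs were given no cell class.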

How the results depend on the processing

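No paired analysis was possible because the groups share only 1 replicate number, which pairs nothing, and no group has a second library to leave out. A model with state and gate as additive terms was not fitted. Of 654 values of the 8 genes' log2 ratios under other settings, 618 kept the sign and 587 lay inside the counting interval of the main value. For Csf1 in EAE over naive TRAIL+ cells (0.94) the ratio was 0.45 at Leiden resolution 2, where the class II-led cells stayed unnamed, 0.73 from per-cell means, 0.78 with TMM and 0.36 without the class II-led cluster. In TRAIL- cells (1.87) it was 1.42 at resolution 2 and 1.02 without that cluster. In TRAIL+ over TRAIL- EAE cells (-0.26) it was -0.035 with TMM, -0.055 with DESeq2 size factors and -0.045 without the cluster. For class II in EAE TRAIL+ (1.14) it was 0.80 at resolution 2 and 0.90 without the cluster. The mural Il34 ratio (0.20) was -0.20 with at least 1000 UMIs per barcode. Csf2ra between class II-high and class II-low cells of EAE TRAIL- (0.35) was -1.29 at resolution 2 and -1.05 without the cluster. Dropping the cluster and raising the per-barcode floor leave out cells by construction, as does resolution 2 for the class II-led cells left unnamed. The cause of these changes was not tested.

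Counts of genes past 2-fold were 92 and 524 for EAE over naive (TRAIL+ and TRAIL-), 90 and 36 for TRAIL+ over TRAIL- (EAE and naive), and 60 and 496 for class II (EAE TRAIL+ and EAE TRAIL-). In that order they were 444, 1307, 487, 300, 296 and 1187 at 1.5-fold, 222, 1318, 430, 303, 168 and 1606 with a floor of 20 CPM, and 9848, 10142, 15240, 16108, 9341 and 8064 with no floor beyond 1 UMI. At resolution 2 they were 55 for EAE over naive TRAIL+, 212 for the gate in EAE, and 31 and 977 for class II. Without the cluster they were 47, 286, 39 and 1180 in the same order, and class II in EAE TRAIL+ gave 106 with a threshold of 1% of UMIs. Scaling moved the split of higher and lower calls: EAE over naive TRAIL+ had 77 and 15, with TMM 62 and 34 and with DESeq2 68 and 28. The gate had 24 and 66 in EAE, with TMM 84 and 35 and with DESeq2 79 and 38, and in naive mice 9 and 27, with TMM 33 and 10 and with DESeq2 34 and 9. Class II had 51 and 9 in EAE TRAIL+, with DESeq2 67 and 3, and 185 and 311 in EAE TRAIL-, with TMM 345 and 178 and with DESeq2 285 and 203. TMM moved the median log2 ratio of all genes to -0.21 for EAE over naive TRAIL+ (from -0.05), to 0.20 for both gates (from -0.03) and to 0.20 for class II in EAE TRAIL- (from -0.05).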

Other observations

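The 18 TGF-beta dependent genes were also compared between the sort fractions. In EAE microglia-like cells 1 of 18 was below 1-fold in TRAIL+ relative to TRAIL- cells, and the median log2 ratio was 0.40 beside -0.03 for all genes, with none past 2-fold. Fcrls stood at 697 CPM in TRAIL+ and 355 CPM in TRAIL- EAE cells, and P2ry13 at 554 and 322 CPM. In naive mice 10 of 18 were below 1-fold and the median was -0.03 beside -0.03. The class II genes were lower in TRAIL+ than in TRAIL- cells in naive mice, H2-Eb1 at 0.193 times, H2-Aa at 0.216 times and Cd74, the invariant chain, at 0.374 times. In EAE they were at 0.572 to 0.824 times, with H2-Ab1 lowest and Cd74 highest. The share of class II-high cells was nonetheless alike in the naive sets. It was 5.28% for TRAIL- (17 cells of 322) and 5.02% for TRAIL+ (95 cells of 1893), where the threshold fixes it. Past a threshold of 1% of UMIs lay only 4 TRAIL- and 6 TRAIL+ naive cells. How far the naive ratios rest on these few cells was not tested. With scaling by total UMIs, other genes of the lists past 2-fold between the fractions were all lower in TRAIL+ cells. TMM raised the median log2 ratio of all genes from -0.03 to 0.20 in EAE and in naive mice, and most calls were then higher in TRAIL+ cells. These genes of the lists were not called again with TMM. In EAE, where 2.79% of all genes passed 2-fold either way, they were Jak2 (0.402 times) and Tsc22d1 (0.472 times). Jak2 was 1 of 18 genes compared of CSF1 receptor signalling and myeloid factors, and Tsc22d1 1 of 5 general TGF-beta targets. In naive mice, where 1.13% did, it was Klf10 (0.464 times), 1 of 5 general targets.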
